A study of Mus musculus with 10 samples.

Results

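The genes examined here build up and take down actin filaments or tie them to the plasma membrane. They are the monomer binders Tmsb4x, Tmsb10 and Pfn1, the severing proteins Cfl1 and Cfl2, the branching subunit Arpc1b, the membrane linkers Ezr, Rdx and Msn, and the filament-bundling LIM protein Csrp1. The list names 10 genes, and all 10 were found, out of 19938 genes that the arrays measure by at least 1 transcript cluster naming no other gene. A transcript cluster is the array's unit of measurement, a set of probes along the exons of a gene. For each gene the cluster that names it alone and has the highest mean signal over all samples was used. No cluster names one of the 10 genes together with another gene.

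The study asked what the coxsackievirus and adenovirus receptor (CAR, gene Cxadr), an immunoglobulin cell adhesion molecule, does in the embryonic heart, and the arrays show which mRNAs differ without it. RNA came from hearts of CAR KO (CAR -/-) and WT (CAR +/+) mouse embryos at E10.5, both from matings of CAR +/- mice, with no treatment. There were 5 CAR KO and 5 WT samples, and each held 3 pooled hearts, so 15 hearts stood behind each genotype. The mutation removes CAR from every cell of the embryo and not from the heart alone, pooling hides differences between single hearts, and the labels give no sex and no litter.

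Actin filaments grow and shrink by exchanging monomers with a soluble pool. Thymosins hold monomers in reserve, profilin passes them to growing ends, cofilins sever old filaments, and the Arp2/3 complex starts new branches. Ezrin, radixin and moesin, the ERM proteins, bind filaments with one end and membrane proteins with the other, and in heart muscle these systems act during sarcomere assembly, at cell contacts and in migrating endocardial and epicardial cells.

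Signals are log2 values as deposited, so a difference of 1 is a doubling. The medians of the 10 arrays lay between 7.65 and 7.73, and correlations between arrays ranged from 0.987 to 0.998. Cxadr signals were 6.69, 6.56, 6.37, 6.47 and 6.23 in the CAR KO samples, against 8.28, 8.25, 8.46, 8.66 and 8.24 in the WT samples, and the genotypes did not overlap. The fitted log2 difference of Cxadr was -1.91 (SE 0.103, limma, adjusted p = 1.4e-05). Its CAR KO mean of 6.46 was below the background level of 6.51 set from odorant and vomeronasal receptor clusters, so the array gives only a lower bound on the size of the fall. Means of the cardiomyocyte markers (11 of 11 above background) lay between 12.91 and 13.25 in CAR KO and between 12.99 and 13.25 in WT samples. Liver and yolk sac transcripts were unevenly spread, with means between 6.80 and 10.28 in CAR KO and between 7.26 and 9.24 in WT samples. Epicardial and mesothelial markers (7 of 7 above background) had means between 9.47 and 9.96 in CAR KO samples, against 9.85 to 10.07 in WT samples, a difference of -0.27 (two-sided exact permutation p = 0.0238, n = 5 each). That p is not corrected for the number of marker lists, and the genotypes overlapped. At an adjusted p under 0.05 (limma) 0 of the 7 markers were called, where 0.00345% of all clusters were. An unadjusted p under 0.05 (limma) was found for 4 of the 7, against 2.4% of all clusters. The 7 were measured in the same samples, so they are not independent.

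None of the 10 actin genes was called different between CAR KO and WT hearts. At an adjusted p under 0.05 (limma, Benjamini-Hochberg over 28944 clusters) 0 of 10 passed, where 0.00345% of all clusters passed, which is Cxadr alone. At an unadjusted p under 0.05 there was 1 gene of the 10, Tmsb4x, against 2.4% of all clusters in either direction and 1.43% in the direction of Tmsb4x, lower in CAR KO hearts. The data also bound the size of any difference in array signal, though how far the scale compresses differences at high signals was not tested. All 10 genes had a 95% confidence interval inside a 1.5-fold change in either direction, as did 97.1% of the 14661 genes above background. In this fit all 10 also had one inside 1.2-fold, as did 63.9% of those genes, but that narrower limit did not hold under every alternative (last section). The 10 genes are bright, and among the 925 genes at least as bright as the dimmest of them 82.1% had an interval inside 1.2-fold and 2.27% an unadjusted p under 0.05. In bulk tissue fewer cells of a type and less RNA per cell cannot be told apart. The p-values set a difference against the spread between these samples, and limma draws that spread toward a value shared by all clusters.

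**Figure D1:**
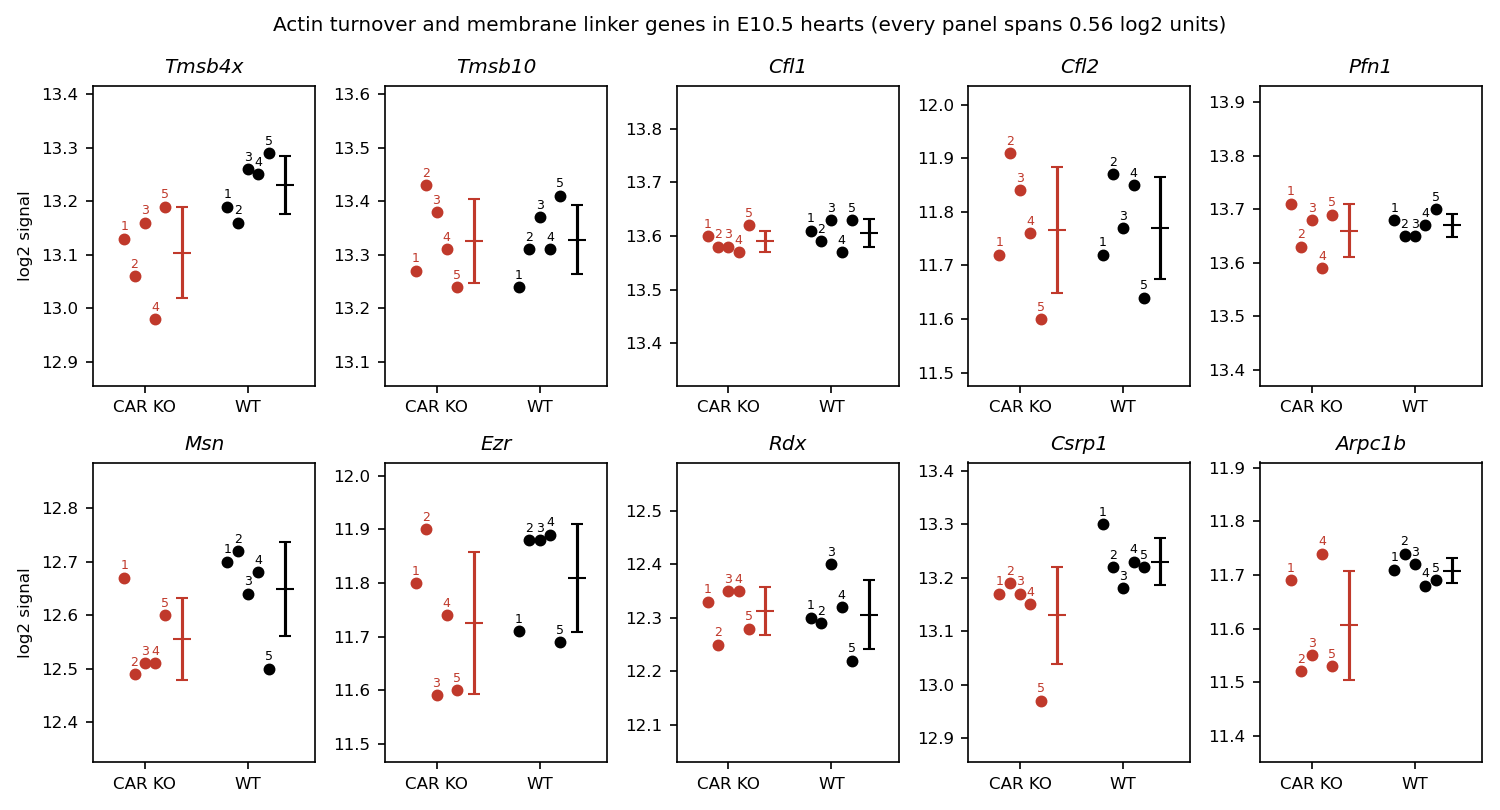
Log2 signal of each of the 10 actin genes in every sample, with CAR KO samples in red on the left and WT samples in black on the right of each panel. Numbers are sample numbers, bars show mean and SD (n = 5 each), and every panel spans the same height on the log2 axis, so that the narrow scatter of Cfl1 (13.57 to 13.63) and the wider one of Csrp1 (12.97 to 13.30) can be set side by side.

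Among the monomer binders, Tmsb4x came closest to a difference. It encodes thymosin beta 4, which holds actin monomers out of filaments and is known for a role in epicardial and coronary development in mice. Tmsb4x signals were 13.13, 13.06, 13.16, 12.98 and 13.19 in the CAR KO samples, against 13.19, 13.16, 13.26, 13.25 and 13.29 in the WT samples. In 4 of the 5 CAR KO samples the signal was below the lowest WT sample, in sample 3 by less than the printed precision, and CAR KO sample 5 lay among the lower WT samples, so that the genotypes overlapped. The means were 13.10 ± 0.08 in CAR KO and 13.23 ± 0.05 in WT hearts (SD, n = 5 each). That is a difference of -8.42%, with a 95% confidence interval of the log2 difference from -0.25 to -0.003 (unadjusted p = 0.046, adjusted p = 1.0, limma). The two-sided exact permutation test of this gene alone gave p = 0.0159, where 0.00794 is the smallest it allows, with no correction for the number of genes. The unadjusted limma p exceeded 0.05 once each array was centred on its median, or once the liver and yolk sac mean or the Y-linked mean (below) entered as a covariate. It also exceeded 0.05 in 7 of the 10 fits that left out 1 sample, among them the fit without CAR KO sample 4, where the log2 difference was -0.096. In the other limma fits to all 10 samples the unadjusted p stayed under 0.05. There it ran from 0.0129 (intensity trend and robust prior) to 0.0486 (clusters of 1 gene), and was 0.015 after quantile normalization. The lowest adjusted p of Tmsb4x under any alternative was 0.775 (limma, array weights).

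Tmsb4x lies on the X chromosome (X, 167207093 to 167213479, GRCm38.p6), and Y-linked transcripts were unevenly spread over the pools. The mean of the Y-linked genes Kdm5d, Eif2s3y and Uty was 7.49, 7.75, 8.68, 7.25 and 4.81 in the CAR KO samples, against 8.25, 8.11, 8.85, 8.32 and 8.23 in the WT samples. CAR KO sample 5 stood far below every other sample, and 4 of the CAR KO samples were below the lowest WT sample, a difference of -1.15 (exact permutation p = 0.0635). With that mean as a covariate the log2 difference of Tmsb4x was -0.144 instead of -0.127, adjusted p = 0.996 (limma). Signals of the X-linked gene Xist ran from 9.09 to 10.55 in CAR KO and from 8.36 to 9.79 in WT samples (difference 0.59, exact permutation p = 0.175), with CAR KO sample 5 the highest. The mix of male and female hearts in each pool is not given, it may differ between the genotypes, and its part in these differences was not tested.

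Tmsb10, the gene of the related thymosin beta 10, did not separate the genotypes. Its signals were 13.27, 13.43, 13.38, 13.31 and 13.24 in the CAR KO samples, against 13.24, 13.31, 13.37, 13.31 and 13.41 in the WT samples. High and low samples occurred in both genotypes, with CAR KO sample 2 and WT sample 5 at the top. The difference was -0.264%, with an interval from -8.49% to 8.7% (adjusted p = 1.0, limma). A second cluster that names Tmsb10 alone ran with the first over the 10 samples (r = 0.965, rho = 0.954 of deviations from the genotype means, exact permutation p = 0.000139 and 0.000278) and gave -0.942%, with an interval from -9.32% to 8.21%. In the platform's numbering that second cluster stands between Gm5893 and Dmrtc2 on chromosome 7, while Tmsb10 lies on chromosome 6 (72957347 to 72958748), and its probes were not mapped here. The cluster used stands between genes of chromosome 6.

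Pfn1 encodes profilin 1, which loads actin monomers with ATP and delivers them to growing filament ends. Its signals were 13.71, 13.63, 13.68, 13.59 and 13.69 in the CAR KO samples, against 13.68, 13.65, 13.65, 13.67 and 13.70 in the WT samples. The WT samples lay within those of CAR KO, which held both the highest and the lowest value. The difference was -0.83%, with an interval from -7.79% to 6.65% (adjusted p = 1.0, limma). Tmsb4x and Pfn1 are the pair whose deposited signals had the highest positive correlation from sample to sample, though not after quantile normalization, as given further down. The 100 bases before their annotated starts are shown for that reason (RefSeq, GRCm38.p6, minus strand for both, at chrX:167209219-167209318 and chr11:70654651-70654750). Capitals mark the GC box, searched as GGGCGG and as its reverse complement CCGCCC, with overlapping matches counted.
Tmsb4x: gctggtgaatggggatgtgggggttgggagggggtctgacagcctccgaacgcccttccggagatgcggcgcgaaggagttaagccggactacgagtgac
Pfn1: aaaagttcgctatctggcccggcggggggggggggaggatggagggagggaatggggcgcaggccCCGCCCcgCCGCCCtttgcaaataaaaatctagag
The Tmsb4x window held 0 GC boxes at 64% G and C, and the Pfn1 window 2 at 65%. Over the same window 24.7% of 32851 annotated mouse starts held at least 1, and the median content of G and C was 55%.

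The cofilins bind the sides of old filaments and cut them, and neither of the forms measured here passed the test. Cfl1, the form of non-muscle cells, had the narrowest scatter of the 10 genes. Its signals were 13.60, 13.58, 13.58, 13.57 and 13.62 in the CAR KO samples, against 13.61, 13.59, 13.63, 13.57 and 13.63 in the WT samples. All 10 samples sat within 0.06 log2 units of each other. The difference was -1.08%, with an interval from -7.66% to 5.97% (adjusted p = 1.0, limma).

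Cfl2 encodes the muscle form of cofilin, needed for filament turnover in sarcomeres. Its signals were 11.72, 11.91, 11.84, 11.76 and 11.60 in the CAR KO samples, against 11.72, 11.87, 11.77, 11.85 and 11.64 in the WT samples. Sample 5 was the lowest in both genotypes and sample 2 the highest, and the ranges nearly coincided. The difference was -0.28%, with an interval of the log2 difference from -0.16 to 0.15 (adjusted p = 1.0, limma). Samples 5 were also the lowest of their genotypes in the cardiomyocyte marker mean, at 12.91 in CAR KO and 12.99 in WT, and Cfl2 correlated with that mean over the samples at r = 0.683 (rho = 0.248, exact permutation p = 0.0549 for r, adjusted p = 0.406), a value that was -0.516 without both samples 5. With the cardiomyocyte mean as a covariate the log2 difference of Cfl2 was 0.009.

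The same windows before the starts of Cfl1 (plus strand, chr19:5490355-5490454) and Cfl2 (minus strand, chr12:54862878-54862977) are printed because these genes of one family varied in opposite directions from sample to sample in the deposited values. Capitals again mark the GC box in either orientation.
Cfl1: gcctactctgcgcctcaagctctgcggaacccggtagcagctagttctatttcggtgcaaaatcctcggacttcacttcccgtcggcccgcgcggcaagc
Cfl2: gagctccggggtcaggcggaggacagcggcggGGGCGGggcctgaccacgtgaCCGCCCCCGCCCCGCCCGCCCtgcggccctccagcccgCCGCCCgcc
The Cfl1 window held 0 GC boxes at 61% G and C, and the Cfl2 window 6 at 85%, a number that 0.0944% of all starts reached. Over the 10 genes the table lists 14 starts, of which 6 held a GC box. A match of letters is a description of the window only.

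Arpc1b, a subunit of the Arp2/3 complex that nucleates branched filaments, lay below its WT mean in 4 of 5 CAR KO samples and did not pass the test. Its signals were 11.69, 11.52, 11.55, 11.74 and 11.53 in the CAR KO samples, against 11.71, 11.74, 11.72, 11.68 and 11.69 in the WT samples. The WT samples lay close together, and the CAR KO samples split into 3 below all WT samples and 2 among them. The means were 11.61 ± 0.10 in CAR KO and 11.71 ± 0.03 in WT hearts (SD, n = 5 each), a difference of -6.74% with an interval from -14.7% to 1.91% (adjusted p = 1.0, limma; exact permutation p = 0.111). The cluster used here stands, in the platform's numbering, between clusters of the X-linked genes Mir504 and Mcf2, and the RefSeq annotation places a pseudogene, Gm5637, at X from 60045096 to 60046276, next to Mcf2. Arpc1b itself lies on chromosome 5 from 145114256 to 145128186. The probes of the cluster were not mapped here, so the signals printed above may not measure Arpc1b. The same holds for the Arpc1b values in the plots, in counts over the 10 genes and in the correlations further down. The second cluster that names Arpc1b alone stands between Arpc1a and Bud31 on chromosome 5. Its signals were 11.47, 11.45, 11.30, 11.67 and 11.22 in the CAR KO samples, against 11.44, 11.58, 11.49, 11.47 and 11.46 in the WT samples. There CAR KO sample 4 was the highest of all and sample 5 the lowest, and the difference was -4.25%, with an interval from -15.2% to 8.12% (exact permutation p = 0.468). Over the 10 samples the clusters ran together (r = 0.822, exact permutation p = 0.0333, and rho = 0.685, p = 0.111).

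The ERM linkers differed from each other in where their samples fell, and none passed the test. Msn encodes moesin, the linker of endothelial and blood cells. Its signals were 12.67, 12.49, 12.51, 12.51 and 12.60 in the CAR KO samples, against 12.70, 12.72, 12.64, 12.68 and 12.50 in the WT samples. CAR KO samples 2, 3 and 4 lay at the bottom together with WT sample 5, and the other samples were higher. The means were 12.55 ± 0.08 in CAR KO and 12.65 ± 0.09 in WT hearts (SD, n = 5 each), a difference of -6.24% with an interval from -14.5% to 2.86% (adjusted p = 1.0, limma; exact permutation p = 0.103). Like Tmsb4x, Msn is X-linked (X, 96096045 to 96168553), and with the Y-linked mean as a covariate its log2 difference was -0.118 instead of -0.093.

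Ezr encodes ezrin, the linker best known from microvilli of epithelial and mesothelial cells. Its signals were 11.80, 11.90, 11.59, 11.74 and 11.60 in the CAR KO samples, against 11.71, 11.88, 11.88, 11.89 and 11.69 in the WT samples. The spread within each genotype exceeded the distance between their means, and the highest sample of all was CAR KO sample 2. The difference was -5.47%, with an interval from -15.6% to 5.92%, the widest interval of the 10 genes on the log2 scale (adjusted p = 1.0, limma). The log2 difference of -0.081 depended on single samples, being -0.048 without CAR KO sample 3, -0.05 without CAR KO sample 5 and -0.124 without CAR KO sample 2, and it was -0.047 with the Y-linked mean as a covariate. With the genotype means removed, Ezr correlated with the epicardial and mesothelial mean at r = 0.706 (rho = 0.685, exact permutation p = 0.0433 for r, adjusted p = 0.389), a value that was 0.742 without CAR KO samples 4 and 5.

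Rdx encodes radixin, the ERM member known in mice for hair cell stereocilia and bile canaliculi. Its signals were 12.33, 12.25, 12.35, 12.35 and 12.28 in the CAR KO samples, against 12.30, 12.29, 12.40, 12.32 and 12.22 in the WT samples. Every CAR KO sample lay within the WT range. The difference was 0.242%, with an interval from -7.46% to 8.58% (adjusted p = 1.0, limma), and Rdx was the 1 gene of the 10 whose fitted difference was above 0.

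Csrp1 encodes a LIM protein that binds alpha-actinin and bundles filaments, and it is a smooth muscle marker in later vessels. Its signals were 13.17, 13.19, 13.17, 13.15 and 12.97 in the CAR KO samples, against 13.30, 13.22, 13.18, 13.23 and 13.22 in the WT samples. CAR KO samples 1, 3, 4 and 5 lay below the lowest WT sample, sample 5 by the widest gap, and CAR KO sample 2 was just above it. The means were 13.13 ± 0.09 in CAR KO and 13.23 ± 0.05 in WT hearts (SD, n = 5 each), a difference of -6.77% with an interval from -14.5% to 1.67% (unadjusted p = 0.103, adjusted p = 1.0, limma). The exact permutation test gave p = 0.0159, with no correction for the number of genes. Without CAR KO sample 5, the sample with the lowest cardiomyocyte and Y-linked means, the log2 difference was -0.062 instead of -0.101. With the Y-linked mean as a covariate it was -0.041.

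**Figure D2:**
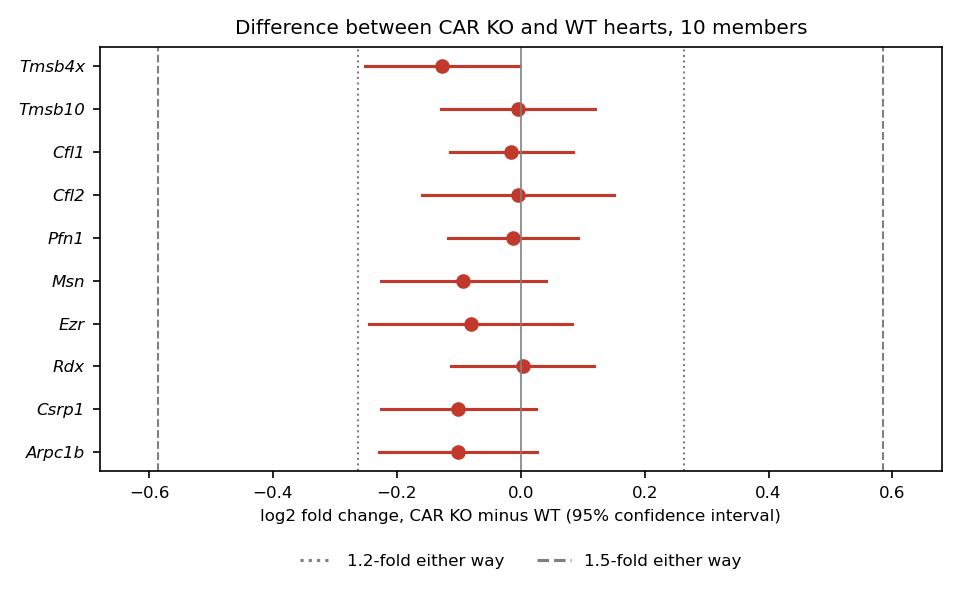
Log2 fold change of CAR KO over WT hearts for the 10 actin genes, with points for the fitted difference and lines for the 95% confidence interval from limma (n = 5 each). Dotted lines mark a 1.2-fold and dashed lines a 1.5-fold change in either direction. All 10 intervals lie inside the dotted lines, and the interval of Tmsb4x ends just below 0, at -0.003.

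Read as a group, 9 of the 10 genes had a fitted difference below 0 and 1 above it, with a median of -0.05 on the log2 scale. With the chromosome 5 cluster of Arpc1b in place of the other, 9 were below 0, 0 were called and the median was -0.039. Over all clusters the median was 0.01, and 50.1% of the genes above background were below 0. Among the 925 genes at least as bright as the dimmest of the 10, 59.9% were below 0, with a median of -0.01. The CAR KO and WT samples overlapped for all 10 genes, where 0.359% of all clusters showed no overlap. Standard errors of the differences were between 0.045 and 0.075 log2 units, and SDs within a genotype between 0.02 and 0.13. In 7 of the 10 genes the SD was larger among CAR KO than among WT samples, as it was in 65.1% of the genes above background. The highest signal on each array was between 14.44 and 14.49, and means of the 10 genes reached 13.66, so they lie in the upper part of the scale. How far the scale compresses differences there was not tested.

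Related genes could change against each other even where neither passes a test alone, so log2 differences between family members were taken in each sample. Such a difference carries the unlike response of the probes, and only its shift between genotypes can be read. Cfl2 minus Cfl1 was -1.82 ± 0.13 in CAR KO and -1.84 ± 0.12 in WT hearts (SD, n = 5 each), with an exact permutation p = 0.857. For Tmsb10 minus Tmsb4x it was 0.22 ± 0.13 in CAR KO and 0.10 ± 0.04 in WT hearts, a shift of 0.12 (exact permutation p = 0.103). Ezr minus Msn was -0.83 ± 0.15 in CAR KO and -0.84 ± 0.09 in WT hearts (exact permutation p = 0.897). Rdx minus Msn was -0.24 ± 0.09 in CAR KO and -0.34 ± 0.08 in WT hearts, a shift of 0.10 (exact permutation p = 0.111). After Benjamini-Hochberg adjustment over the 4 balances p-values lay between 0.222 and 0.897, so none passed 0.05.

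To see how the genes varied among themselves, each sample's deviation from its genotype mean was correlated over the 10 samples, with exact permutation within genotypes. Of the 45 pairs, 0 passed an adjusted p of 0.05 and 3 had an unadjusted p under 0.05. Tmsb4x and Pfn1 varied together (r = 0.803, exact permutation p = 0.0194, adjusted p = 0.291, rho = 0.782), with CAR KO samples 2 and 4 low in both genes, and r was 0.314 without those samples. Cfl1 and Cfl2 varied in opposite directions (r = -0.767, exact permutation p = 0.0173, adjusted p = 0.291, rho = -0.697), r being -0.741 without CAR KO samples 2 and 5. After quantile normalization between arrays this r was -0.122, and that of Tmsb4x and Pfn1 was 0.589. Tmsb10 and Msn also varied in opposite directions (r = -0.78, exact permutation p = 0.0158, adjusted p = 0.291, rho = -0.827), with r = -0.665 without CAR KO sample 2 and WT sample 5 and r = -0.42 after quantile normalization. After that normalization the highest positive correlation was that of Cfl2 and Ezr (r = 0.723, and 0.663 in the deposited values).

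The same deviations were set against the means of 9 marker lists, taken as a guide to the cell makeup of the samples. Of these 90 relations 0 passed an adjusted p of 0.05 and 10 had an unadjusted p under 0.05. The smallest p was that of Cfl1 with the macrophage mean (r = 0.783, exact permutation p = 0.00896, adjusted p = 0.31, rho = 0.77), where r was 0.341 after quantile normalization. The highest r was that of Cfl2 with the epicardial and mesothelial mean (r = 0.791, exact permutation p = 0.015, adjusted p = 0.31, rho = 0.794), and r was 0.692 without CAR KO samples 4 and 5. Cfl2 also ran with the endothelial mean (r = 0.733, exact permutation p = 0.0303), where r was 0.115 without both samples 5, and Tmsb10 with the epicardial mean (r = 0.713, exact permutation p = 0.039). Ezr, beside its relation to the epicardial mean given above, ran with the endothelial and endocardial mean (r = 0.79, exact permutation p = 0.0112, adjusted p = 0.31, rho = 0.624), and r was 0.778 without CAR KO sample 5 and WT sample 5. Csrp1 ran against the cushion mesenchyme mean (r = -0.787, exact permutation p = 0.0172, adjusted p = 0.31, rho = -0.782), and r was -0.734 without CAR KO sample 3 and WT sample 1. The cluster used for Arpc1b, which may not measure that gene, ran against the foregut epithelium mean (r = -0.743, exact permutation p = 0.0171, adjusted p = 0.31, rho = -0.709). For Tmsb4x the foregut mean gave r = 0.74 and the endothelial mean r = -0.733 (exact permutation p = 0.0277 and 0.0282, adjusted p = 0.341 for both). All 7 foregut markers were above background, with means of 7.65 to 8.44 in CAR KO and 7.56 to 8.28 in WT samples, and the genotypes overlapped (difference 0.18, exact permutation p = 0.349). Macrophage means were 7.24 to 7.68 in CAR KO and 7.46 to 7.98 in WT samples, with 9 of 11 markers above background and Ptprc and Adgre1 not.

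**Figure D3:**
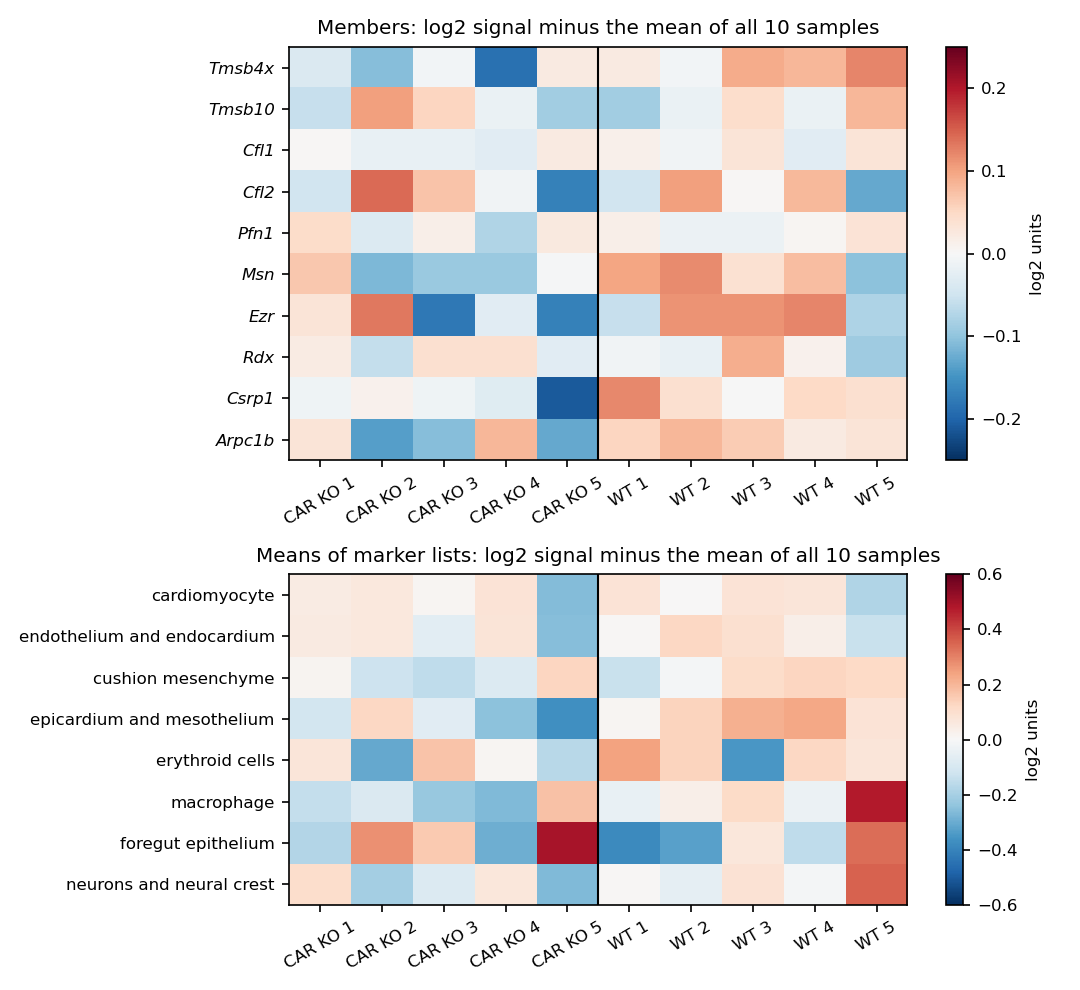
Deviation of each sample from the mean of all 10 samples in log2 units, for the 10 actin genes (top) and for the means of 8 marker lists (bottom), with the 5 CAR KO samples left of the line and the 5 WT samples right of it. Red is higher and blue is lower, and the scales differ between the panels. CAR KO sample 5 is the darkest blue for Csrp1 (12.97) and is low for the cardiomyocyte mean (12.91), and no column is of one colour through all 10 genes.

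For each of the 10 genes the other genes above background whose deviations were most like its own over the 10 samples were looked up among 14661 genes. As the highest of so many correlations over 10 samples, these are descriptions without a test. Zfp334 (r = 0.983) and N4bp1 (r = 0.98) were closest to Tmsb4x, Mturn (r = 0.94) and Depp1 (r = 0.938) to Tmsb10, and Pced1a (r = 0.913) and Mtmr12 (r = 0.905) to Pfn1. Closest to Cfl1 were Ino80 (r = 0.91) and Gm10548 (r = 0.891), and to Cfl2 Atf3, an immediate early transcription factor (r = 0.974), and Mvp (r = 0.968). The linker Msn was followed by the circadian factor gene Clock (r = 0.956) and Lclat1 (r = 0.897), Ezr by S100g (r = 0.965) and Ccdc182 (r = 0.957), and Rdx by Atp2c1 (r = 0.967) and Slc7a6 (r = 0.955). Rbm38 (r = 0.959) and Snx21 (r = 0.942) were most like Csrp1, and Dffa (r = 0.972) and Slc25a43 (r = 0.952) most like the cluster used for Arpc1b. None of these genes belongs to the 10 or to the pathway lists below.

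The genes around the 10 showed the same lack of a called difference. Of 150 genes listed by role, the 10 included, 138 had a cluster of their own. Among these 138, 0 passed the adjusted threshold, 4 had an unadjusted p under 0.05 (against 2.4% of all clusters), 49 were above 0 and 89 below, and 135 had an interval inside 1.5-fold. The median was -0.01 on the log2 scale. Below 0 were also 50.1% of all genes above background, and 59.9% of the 925 genes at least as bright as the dimmest of the 10. The listed genes were measured in the same samples, so their directions are not independent. The counts above and below 0, here and for the single lists that follow, are descriptions and were not tested. The 3 genes whose interval reached past 1.5-fold were Gsn, which caps and severs filaments (-0.59 to 0.21), and the blood cell genes Was (-0.38 to 0.75) and Nckap1l (-0.73 to 0.55), which activate the Arp2/3 complex.

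Among thymosins, profilins and other monomer binders, 12 of 15 were measured and 9 of them were below 0. Cap1 and Cap2, which recharge actin monomers, averaged 12.49 and 12.86 in CAR KO, against 12.53 and 12.88 in WT hearts. Pfn3, a testis profilin, averaged 7.39 in CAR KO and 7.30 in WT hearts, and Tmsb15a was not above background. In the list of cofilins, severing proteins and their regulators 22 of 28 were below 0, with a median of -0.055. Tesk1, a kinase that inactivates cofilin, averaged 10.80 ± 0.09 in CAR KO and 10.97 ± 0.13 in WT hearts (unadjusted p = 0.0463, adjusted p = 1.0, limma). Vil1, villin of epithelial microvilli, averaged 7.07 ± 0.10 in CAR KO and 6.84 ± 0.19 in WT hearts (unadjusted p = 0.0238, adjusted p = 1.0, limma), near the background level. Dstn, the relative of cofilin called destrin, averaged 12.68 in CAR KO and 12.69 in WT hearts, and Coro1c, a coronin, 12.47 in CAR KO and 12.53 in WT hearts.

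In the Arp2/3 list 15 genes were above and 12 below 0, and 0 had an unadjusted p under 0.05. Arpc2, a core subunit, averaged 12.54 in CAR KO and 12.52 in WT hearts, Abi1 of the WAVE complex 12.31 in CAR KO and 12.30 in WT hearts, and the branch stabiliser Cttn 11.91 in CAR KO and 11.95 in WT hearts. Arpin, an inhibitor of the complex, averaged 10.04 ± 0.20 in CAR KO and 10.16 ± 0.06 in WT hearts. Formins, capping proteins and elongation factors divided evenly, with 12 above and 12 below 0. The capping subunit Capzb averaged 12.91 in CAR KO and 12.95 in WT hearts, and the pointed-end cappers Tmod1 and Tmod3 12.86 and 10.47 in CAR KO, against 12.88 and 10.57 in WT hearts. Diaph2, a formin, averaged 8.44 ± 0.21 in CAR KO and 8.59 ± 0.06 in WT hearts.

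For the membrane partners and kinases of ERM proteins 12 of 18 were below 0. Slc9a3r2, a PDZ scaffold that binds their membrane end, averaged 10.33 ± 0.21 in CAR KO and 10.55 ± 0.11 in WT hearts (unadjusted p = 0.048, adjusted p = 1.0, limma). Pdpn, a membrane mucin bound by ERM proteins and a mesothelial gene, averaged 9.46 in CAR KO and 9.58 in WT hearts. Rhoa, whose signalling activates ERM proteins, averaged 13.06 in both, and Ppp1r12a, a subunit of myosin phosphatase, 11.26 in CAR KO and 11.27 in WT hearts. Of 15 CSRP family and other actin-binding LIM genes 12 were below 0, with a median of -0.06. Zyx, a focal adhesion protein, averaged 11.36 in CAR KO and 11.46 in WT hearts, and Pdlim3 of the Z-disc 12.65 ± 0.30 in CAR KO and 12.80 ± 0.09 in WT hearts. Crip2 averaged 13.23 in CAR KO and 13.26 in WT hearts, and Actn4, a non-muscle alpha-actinin, 12.82 in CAR KO and 12.88 in WT hearts.

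Several genes of actin turnover are targets of the serum response factor SRF, whose cofactors sense the pool of free monomers. In that list 10 of 14 were below 0 and 0 had an unadjusted p under 0.05. Srf itself averaged 11.05 ± 0.12 in CAR KO and 11.15 ± 0.07 in WT hearts, and its targets Vcl 11.68 ± 0.08 in CAR KO and 11.78 ± 0.13 in WT hearts, Actb 14.08 ± 0.04 in CAR KO and 14.09 ± 0.04 in WT hearts, and Acta2 13.87 ± 0.04 in CAR KO and 13.88 ± 0.06 in WT hearts.

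**Figure D4:**
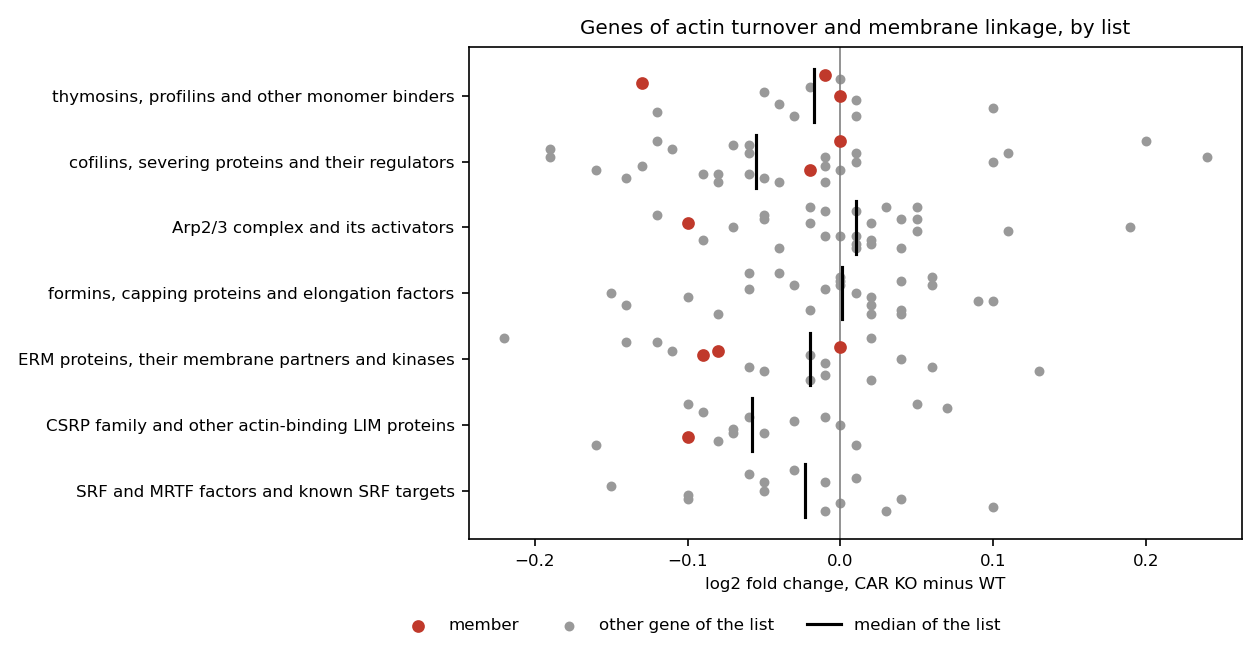
Log2 fold change of CAR KO over WT hearts for the measured genes of 7 lists, with red points for the 10 actin genes, grey points for other genes and black lines for list medians. Points are spread vertically only to separate them. Every point lies between -0.22 (Slc9a3r2) and 0.24 (Vil1), and list medians lie between -0.058 and 0.01.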

How the data were processed

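Hearts of 5 CAR KO and 5 WT samples (3 pooled hearts each, E10.5) were hybridised to Affymetrix Mouse Gene 1.0 ST arrays. The deposited table holds log2 signals in 35556 rows and was used as it stood. The submitters' processing notes name MAS5. How the scanner values became this table is not given in the sources. After 6612 control rows were left out, 28944 clusters remained, 21789 with 1 gene symbol, 1621 with several and 5534 with none. Symbols come from the platform annotation, and all 10 genes were found by it.

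CAR KO was compared with WT by limma 3.58.1 (lmFit and eBayes, R 4.3.3) and called different below a Benjamini-Hochberg adjusted p of 0.05 over all clusters. Intervals are at 95% and not adjusted for the number of genes. Background was the 95th percentile of 1210 receptor clusters. Single values were compared by exact permutation (Python 3.11.15, numpy 2.4.6), and ranks for rho were taken with scipy 1.17.1. The procedure was tested on simulated data. No 2 arrays were identical. The number of arrays limits the precision.

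The 10 genes, the marker and the pathway lists were chosen with earlier results of these data known. Beside the 10 genes and Cxadr, the text names from each pathway list the genes with the smallest p and the brightest, and the genes most like each of the 10. Gsn, Was and Nckap1l were named after their values were seen. Promoters and coordinates are from RefSeq, GRCm38.p6. Alternatives were quantile normalization, centring, a filter on dim clusters, clusters of 1 gene, the methods' t-test, a robust prior with an intensity trend, a block for the sample number, array weights, leaving out samples, and the liver mean as a covariate. Cardiomyocyte and Y-linked covariates and the second clusters were added after the data were seen. Figures were drawn with matplotlib 3.10.9.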

Additional observations from a re-analysis of the deposited data

Results flagged for a closer look

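In 2 of 38 groups of 5 samples, the lowest sample lay far from the other 4, and chance gives about 1 in 20 groups, or 1.9 of 38. Csrp1 was lowest in CAR KO sample 5, whose gap to the next CAR KO sample was 0.789 of the range of its genotype, above the limit of 0.71 for 5 samples. The mean of the cardiomyocyte markers was also lowest in CAR KO sample 5, with a gap of 0.806 of the range. The same sample had the highest mean of liver and yolk sac transcripts (10.28) and the lowest Y-linked mean (4.81) of all 10 samples. Over the 10 samples Csrp1 correlated with the Y-linked mean at r = 0.765 (exact permutation p = 0.131), and r was -0.331 without CAR KO samples 4 and 5. With the cardiomyocyte mean r was 0.723 (exact permutation p = 0.0859), and with the liver mean -0.699 (exact permutation p = 0.0754). Without CAR KO sample 5 and WT sample 5 these values were 0.129 and -0.156. The log2 difference of Csrp1, -0.101, was -0.041 with the Y-linked, -0.092 with the cardiomyocyte and -0.105 with the liver covariate.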

How the results depend on the processing

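Under all 22 alternatives 0 of the 10 genes and 0 of the other genes of the pathway were called, and all 10 intervals stayed inside 1.5-fold. Adjusted p-values of the 10 ran from 0.775 to 1.0. The 1.2-fold limit of the main fit did not hold throughout. Tmsb4x was -0.133 with centred arrays (unadjusted p = 0.0682, limma) and -0.144 with the Y-linked covariate (unadjusted p = 0.0608, limma). Those intervals held 0 and so reached past 1.2-fold on the lower side. Array weights called 2 clusters, Cxadr and one without a gene name, in place of 1; the cause was not tested. Clusters with an unadjusted p under 0.05 numbered 1811 with array weights, 1304 with the replicate block, 1214 without the 3 samples richest in liver transcripts and 1086 with the cardiomyocyte covariate, against 696. Of the 10 genes, 0 had an unadjusted p under 0.05 with centred arrays, the liver covariate or the Y-linked covariate, and 2 with an intensity trend and robust prior. Differences close to 0 changed sign. Tmsb10 was 0.042 with the Y-linked covariate and 0.039 without the 3 liver-rich samples. Cfl2 was 0.07, 0.009 and 0.028 with the Y-linked covariate, the cardiomyocyte covariate and without the liver-rich samples. Pfn1 was 0.007 with array weights. Rdx was -0.005 with array weights, -0.003 with centred arrays and -0.022 without the liver-rich samples. Leaving out each sample in turn gave 1 called cluster each time, 411 to 1029 clusters with an unadjusted p under 0.05, and a median of the 10 genes from -0.07 (without WT sample 5) to -0.035. Tmsb4x, from -0.149 to -0.096, kept its sign and had an unadjusted p above 0.05 without CAR KO sample 1, 2 or 4 or WT sample 1, 3, 4 or 5. Arpc1b without CAR KO sample 4 and Msn without WT sample 5 had one under 0.05. Signs changed for Tmsb10 (-0.029 to 0.018), Cfl2 (-0.039 to 0.037), Pfn1 (-0.026 to 0.005), Rdx (-0.018 to 0.028), Cfl2 minus Cfl1 (-0.027 to 0.061) and Ezr minus Msn (-0.046 to 0.054). Other genes of the pathway with an unadjusted p under 0.05 numbered 0 to 4, against 3. Samples share numbers from 1 to 5, and deviations of same-numbered samples correlated at 0.201, 0.474, 0.331, 0.073 and 0.561. The own number gave the highest correlation for 4 of the 5 CAR KO samples. The labels do not say what the numbers stand for, so a pairing or batch by number remains possible, and the main fit does not take it into account. The fit with this replicate block called 1 cluster and changed no call among the 10 genes.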
